A study of Mus musculus with 8 samples.

Results

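The genes described here are 10 of the 35275 gene identifiers measured in mouse liver: Acta2, Tagln, Vim, Thy1, Pdgfrb, Lrat, Reln, Pdgfra, Rgs5 and Des. They were chosen by name as identity genes of hepatic stellate cells and of the myofibroblasts these cells can become. RNA was sequenced from 8 liver samples. Of these, 4 were labelled Triple LKO, a loss in liver of the genes for the 3 tristetraprolin (TTP) family proteins (Zfp36, Zfp36l1 and Zfp36l2), with 2 females and 2 males. The other 4 were labelled WT, likewise with 2 females and 2 males. Within each genotype the females are numbered 1 and 2 and the males 3 and 4. The labels give the tissue as liver in all samples. The Cre driver, the strain, the age of the animals and whether a sample came from a tumour were not stated in the sources used here.

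Stellate cells lie between the sinusoidal endothelium and the hepatocytes. In their quiescent state they store vitamin A as retinyl esters. When the liver is injured they can lose this store, gain contractile filaments and deposit collagen, a change called activation, and the resulting cell is called a myofibroblast. Lrat and Reln are commonly used for the quiescent cell, and Acta2, Tagln and collagen genes for the myofibroblast. For the comparison of the states, Acta2, Tagln, Vim, Thy1 and Pdgfrb were set on the activated side, and Lrat, Reln, Pdgfra, Rgs5 and Des on the quiescent side. The division is a convention, since quiescent stellate cells also make Vim and Pdgfrb, and pericytes, portal fibroblasts and T cells make some of these genes.

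The labels were checked against the targeted genes. Zfp36 stood in LKO-labelled livers at 41.2% of the WT mean of the same sex in females and 7.59% in males, and Zfp36l1 at 49.1% and 3.44%. Zfp36l2 stood at 192% in females and 26.0% in males, so in the LKO-labelled females it went against the label, and the libraries are called LKO-labelled throughout. Depth ranged from 15.1 to 18.8 M fragments per library. Mitochondrial genes took 2.80% and 3.44% of fragments in the LKO-labelled females, 7.08% and 10.4% in the LKO-labelled males, and 6.52% to 7.75% in WT livers. LKO-labelled female 1 and WT male 4 stood apart from the other 6 libraries in Gm42418, a predicted gene in ribosomal sequence, with 0.0422% and 0.0602% of fragments against 3.18% to 4.34%. A fit without both of these libraries was run for the difference over both sexes only. Of the 10 genes, those whose call changed in it are given with and without them.

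Acta2 encodes smooth muscle alpha-actin, the defining filament of the myofibroblast, and its transcription is known to be driven by serum response factor through CArG boxes. It lies on chromosome 19 from 34241090 to 34255590, minus strand, in the GRCm38 annotation. Its promoter is shown because Acta2 had the largest called difference of the 10 genes. The RefSeq window of GRCm38.p6 at chr19:34255324-34255623, minus strand, runs from 250 bases before to 50 bases after the annotated start, with CArG-like elements in capitals:
Acta2 promoter: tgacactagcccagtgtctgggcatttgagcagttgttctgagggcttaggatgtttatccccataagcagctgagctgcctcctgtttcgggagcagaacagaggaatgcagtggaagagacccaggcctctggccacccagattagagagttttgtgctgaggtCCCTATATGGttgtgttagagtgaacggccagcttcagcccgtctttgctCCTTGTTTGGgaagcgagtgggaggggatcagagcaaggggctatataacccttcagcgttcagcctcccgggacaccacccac
The search looked on both strands for CC, 6 bases that are A or T, and GG, allowing at most 1 of the 6 to be another base. Both elements, beginning 84 and 34 bases before the RefSeq start, used that allowance. The gene coordinates above come from another annotation, whose start lies further upstream. By those coordinates both elements, at chr19:34255448-34255457 and chr19:34255398-34255407, lie inside the gene. Among all 32851 promoter windows of the table, 9.98% held such an element and 1.63% held one with only A and T in the core. Of the 7 genes of the group with a window (Acta2, Des, Lrat, Rgs5, Pdgfra, Reln and Vim), Lrat held 1 element, beginning 223 bases before its start, and Acta2 held 2. Windows for Tagln, Thy1 and Pdgfrb were not used here.

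TTP family proteins bind AU-rich elements in the 3′ untranslated region of mRNAs, whose core is often written TATTTAT in DNA letters, and promote their decay. Lrat carried 2 such heptamers in its annotated 3′ untranslated region, Rgs5 and Thy1 carried 1 each, and the other 7 genes carried 0. Each is shown with 10 bases on either side and the heptamer in capitals, on GRCm38, because these are the letters that the targeted family is known to recognise:
Lrat, chr3:82896906-82896932, minus strand: aatgtgtttaTATTTATagagcacaaa
Lrat, chr3:82896314-82896340, minus strand: agacagtagcTATTTATatttactttt
Rgs5, chr1:169694194-169694220, plus strand: tataccaccaTATTTATgtatacattg
Thy1, chr9:44047681-44047707, plus strand: ttgtactctgTATTTATtccagggctg
Of 21020 genes with an annotated 3′ untranslated region, 27.6% held the heptamer, at 0.311 sites per kilobase. Lrat had 0.455, Rgs5 0.288 and Thy1 0.887 sites per kilobase. A match describes the letters and was not tested as a binding site. Over both sexes Lrat was called lower in LKO-labelled livers, and Thy1 and Rgs5 were not called. Within females Thy1 and Rgs5 were called higher and Lrat was not called, with the values given below.

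All 10 genes had a mean of at least 0.5 FPKM (fragments per kilobase of transcript and per M fragments) and were tested. Over both sexes, 3 were higher (Acta2, Tagln and Vim) and 2 lower (Lrat and Reln) in LKO-labelled livers, and 5 did not pass. The test was limma on log2(FPKM + 1) with genotype and sex as terms, adjusted over 13573 genes at a threshold of 0.05. In the same fit 24.7% of all genes were called higher and 5.74% lower. Among all called genes 81.1% were higher, which became 48.9% under median-of-ratios scaling and 43.2% under quantile normalization. The median log2 difference was 1.28 for the 10 genes and 0.39 for all genes tested, and median-of-ratios scaling put that of all genes at 0.05. Relative to the median of all genes, Acta2 stood at 2.28 and Reln at −1.81 as scaled by the authors, and at 2.28 and −1.74 under median-of-ratios scaling, and the sign of all 10 genotype differences was kept under every scaling. On each side of the division the count was 3 higher and 0 lower of 5 activated genes, and 0 higher and 2 lower of 5 quiescent genes. The median log2 difference was 1.72 for the activated and 0.64 for the quiescent side, both above that of all genes. The quiescent side thus did not fall as a whole. In bulk liver, fewer cells of a type and less RNA per cell cannot be told apart.

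**Figure D1:**
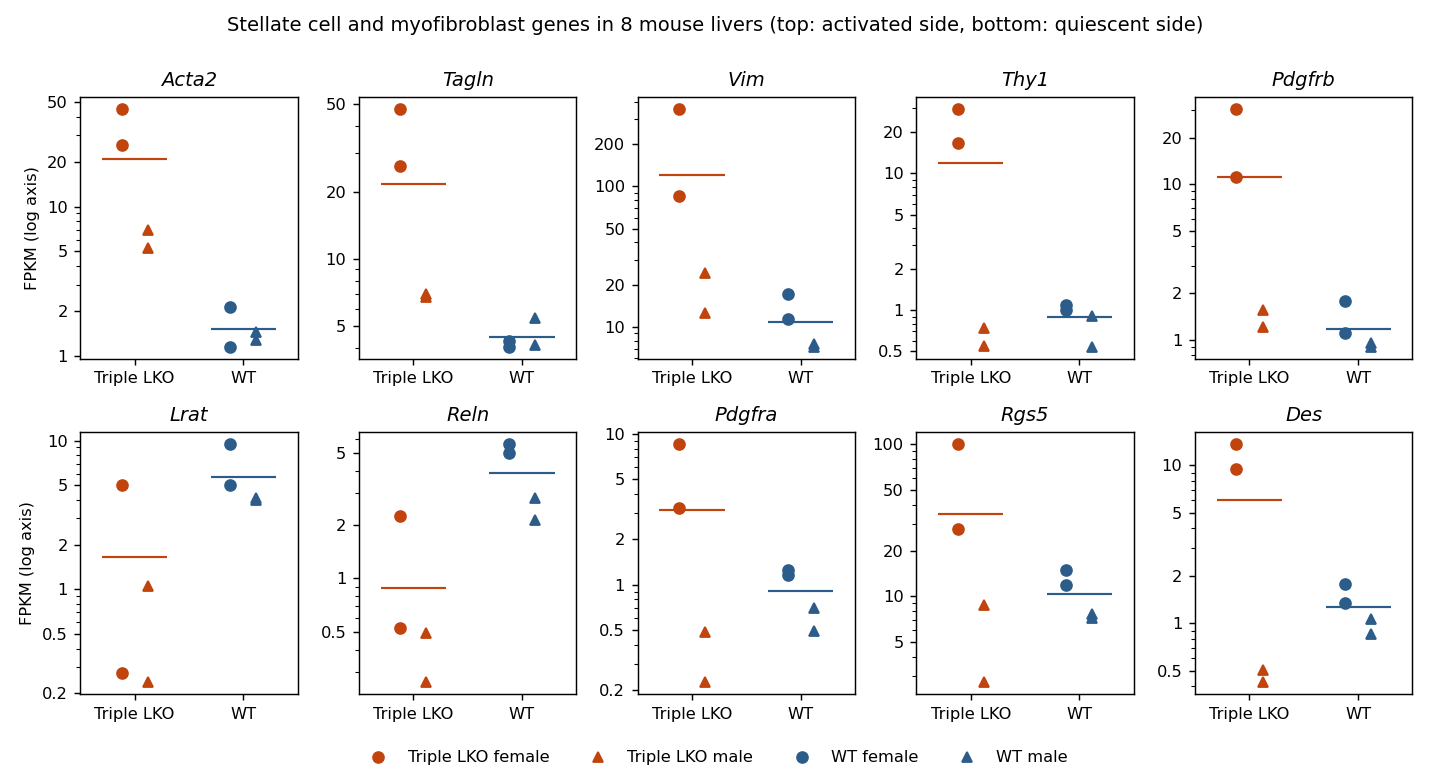
FPKM of the 10 genes in each library, on a logarithmic axis that differs between panels, with LKO-labelled livers on the left of each panel and WT livers on the right (circles, females; triangles, males; horizontal line, mean of 4). The LKO-labelled females lie above all WT livers in 8 panels, all but Lrat and Reln, and both LKO-labelled males lie above all WT livers only for Acta2 and Tagln. For 25.6% of all genes tested, all LKO-labelled values lay above all WT values. The share for the females or the males alone was not counted.

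Acta2 was the gene with the clearest rise. Its level was 25.8 and 45.5 FPKM in LKO-labelled females and 6.96 and 5.26 FPKM in LKO-labelled males, against 1.15 and 2.11 FPKM in WT females and 1.27 and 1.45 FPKM in WT males. All 4 LKO-labelled livers lay above all 4 WT livers, as they did for 25.6% of all genes tested, and of the 10 genes only Acta2 and Tagln did so. The means were 20.9 ± 18.9 FPKM in LKO-labelled and 1.497 ± 0.430 FPKM in WT livers (SD, n = 4 each). Its log2 difference was 2.68 ± 0.44 (SE, limma adjusted p = 0.00484). The two-sided exact permutation p was 0.0286, the smallest that 70 assignments can give, and 0.0556 with sex kept balanced, the smallest of 36. The call held under all 19 alternative settings, with log2 differences between 2.30 and 3.59. Actin genes share much of their coding sequence, and how shared reads were assigned is not given in the sources used here.

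Tagln encodes transgelin (SM22), an actin-binding protein of smooth muscle and myofibroblasts. It had 26.2 and 47.8 FPKM in LKO-labelled females and 6.75 and 7.002 FPKM in LKO-labelled males, against 4.29 and 4.04 FPKM in WT females and 5.45 and 4.13 FPKM in WT males. The groups did not overlap, but the males of both genotypes lay close together. The log2 difference over both sexes was 1.64 ± 0.46 (SE, limma adjusted p = 0.0294), and the call was lost in 10 of 19 alternatives, among them the fits without WT female 1 (0.0829), without WT female 2 (0.0888), without both LKO-labelled female 1 and WT male 4 (0.096), and with samples of neighbouring title numbers as a block (0.0698). Exons of Tagln overlap those of Pcsk7 on the other strand, whose level ranged from 7.30 to 10.2 FPKM in LKO-labelled and 7.26 to 11.6 FPKM in WT livers. The strand setting of the counting is not given in the sources used here, so reads of the shared bases cannot be assigned to either gene.

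Vim and Des encode vimentin and desmin, the intermediate filament proteins of mesenchymal cells and of muscle and stellate cells. Vim had 85.4 and 358 FPKM in LKO-labelled females and 24.3 and 12.6 FPKM in LKO-labelled males, against 11.4 and 17.01 FPKM in WT females and 7.53 and 7.24 FPKM in WT males. Within each sex the LKO-labelled values lay above the WT values, although LKO-labelled male 4 lay below WT female 2. The log2 difference of Vim was 2.35 ± 0.59 (SE, limma adjusted p = 0.0212), and it missed the threshold in 5 of 19 alternatives, with 0.0598 without WT female 1, 0.0642 without WT female 2 and 0.0548 without the libraries low in Gm42418. Des lay above WT in the females and below WT in the males. It had 13.7 and 9.49 FPKM in LKO-labelled females, against 1.35 and 1.79 FPKM in WT females. It had 0.510 and 0.426 FPKM in LKO-labelled males, against 1.06 and 0.852 FPKM in WT males. Over both sexes Des had a log2 difference of 0.93 ± 0.50 (SE, limma adjusted p = 0.173), a mean of values that do not overlap within either sex. Vimentin is also made by endothelial and immune cells, whose markers are given further on.

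Lrat encodes lecithin retinol acyltransferase, which makes the retinyl esters that stellate cells store. It had 0.276 and 5.04 FPKM in LKO-labelled females and 0.239 and 1.06 FPKM in LKO-labelled males, against 5.06 and 9.49 FPKM in WT females and 4.13 and 3.96 FPKM in WT males. Within each sex all LKO-labelled values lay below the WT values, and LKO-labelled female 2 lay within the WT range. The value in LKO-labelled female 1 rests on 23 fragments (exact Poisson 95% interval 14.6 to 34.5, counting error only). The log2 difference was −1.59 ± 0.45 (SE, limma adjusted p = 0.0313). This call, like that of Tagln, was lost in 10 of 19 alternatives, among them the fits without any 1 of WT female 1 (0.0511), WT female 2 (0.0932), WT male 3 (0.0733), WT male 4 (0.0652), and LKO-labelled female 1 (0.0501), male 3 (0.0768) or male 4 (0.0546). Without both libraries low in Gm42418 the difference was −1.04, and the adjusted p 0.123. The sign was kept in all 19.

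Reln encodes reelin, a secreted glycoprotein best known from neuronal migration and in liver a marker of stellate cells. It had 0.532 and 2.23 FPKM in LKO-labelled females and 0.264 and 0.494 FPKM in LKO-labelled males, against 5.01 and 5.65 FPKM in WT females and 2.13 and 2.80 FPKM in WT males. LKO-labelled female 2 lay just above WT male 3, and otherwise the genotypes did not overlap. The log2 difference was −1.42 ± 0.25 (SE, limma adjusted p = 0.00657), and the call held in all 19 alternatives, between −2.46 and −1.08. Reln and Acta2 were the 2 genes of the group whose call held in every alternative. Gm10475, an antisense gene whose exons overlap those of Reln, was listed at 0 in 7 libraries and at 0.0983 FPKM in WT female 2.

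Pdgfrb and Pdgfra encode the receptors for platelet-derived growth factor, the best known mitogen of stellate cells. Pdgfrb had 11.1 and 30.8 FPKM in LKO-labelled females and 1.21 and 1.55 FPKM in LKO-labelled males, against 1.10 and 1.77 FPKM in WT females and 0.950 and 0.903 FPKM in WT males. Its log2 difference over both sexes was 1.66 ± 0.55 (SE, limma adjusted p = 0.0508), just short of the threshold, and it passed in 5 of 19 alternatives. Pdgfra had 3.23 and 8.58 FPKM in LKO-labelled females and 0.227 and 0.487 FPKM in LKO-labelled males, against 1.25 and 1.16 FPKM in WT females and 0.497 and 0.705 FPKM in WT males. The LKO-labelled females lay above all other libraries for both receptors, while the LKO-labelled males lay above the WT males for Pdgfrb and below them for Pdgfra. Over both sexes Pdgfra had a log2 difference of 0.64 ± 0.40 (SE, limma adjusted p = 0.238).

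Rgs5 encodes a regulator of G-protein signalling that is abundant in pericytes, and Thy1 a surface glycoprotein of portal fibroblasts, myofibroblasts and, in mice, T cells. Rgs5 had 27.6 and 100.4 FPKM in LKO-labelled females and 8.72 and 2.74 FPKM in LKO-labelled males, against 14.9 and 11.8 FPKM in WT females and 7.23 and 7.71 FPKM in WT males. The LKO-labelled males fell on both sides of the WT males, and the log2 difference over both sexes was 0.71 ± 0.59 (SE, limma adjusted p = 0.365). Thy1 had 16.8 and 29.7 FPKM in LKO-labelled females and 0.736 and 0.550 FPKM in LKO-labelled males, against 1.01 and 1.08 FPKM in WT females and 0.543 and 0.915 FPKM in WT males. The LKO-labelled females lay far above the other 6 libraries, which spanned 0.543 to 1.08 FPKM. The fewest fragments behind any value in the group were the 17 of Thy1 in LKO-labelled male 4 and in WT male 3 (exact Poisson 95% interval 9.90 to 27.2). Over both sexes Thy1 had a log2 difference of 1.72 ± 0.65 (SE, limma adjusted p = 0.0734).

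Most of the group's changes were found in females. Within females 8 of the 10 genes were higher and 1, Reln, was lower, where 28.1% of all genes were called higher and 6.23% lower. Within males Acta2 was higher and Reln lower, and 8 genes did not pass, where 13.4% of all genes were called higher and 4.09% lower. The median log2 difference of the group was 2.55 in females, against 0.45 for all genes, and −0.16 in males, against 0.24 for all genes. Of the 5 activated genes, 5 were higher in females (median 3.51) and 1 in males (median 0.45). Of the 5 quiescent genes, 3 were higher and 1 lower in females (median 1.53). In males 0 of these were higher and 1 lower (median −0.49). Each of these contrasts sets 2 libraries against 2 and takes its spread from all 8.

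In females the mean of Acta2 was 21.9-fold the WT mean, that of Thy1 22.2-fold, of Vim 15.6-fold, of Pdgfrb 14.6-fold, of Tagln 8.88-fold and of Des 7.38-fold. The log2 differences of these 6 genes ran from 2.28 for Des to 3.77 for Acta2, and each of these 6 calls held in all 16 alternatives that were run within females. Pdgfra (1.53 ± 0.37 SE, limma adjusted p = 0.0175) and Rgs5 (1.91 ± 0.62 SE, 0.0479) were also called higher. The call of Pdgfra was lost without WT female 1, without WT female 2, and under median-of-ratios scaling and quantile normalization. That of Rgs5 was lost in 9 of 16, among them the fits without LKO-labelled female 2, and without any 1 of the 4 WT livers. Reln had a log2 difference of −1.51 ± 0.35 in females (SE, limma adjusted p = 0.015), a call that ended without either WT female. Lrat had −1.52 ± 0.67 (SE, limma adjusted p = 0.113).

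In males the mean of Acta2 was 4.49-fold the WT mean (log2 difference 1.58 ± 0.32 SE, limma adjusted p = 0.0166), and that of Reln was 15.4% of it (−1.33 ± 0.35 SE, 0.0404). Both calls ended without any 1 of the 4 male livers, that of Acta2 also under quantile normalization, and that of Reln also without either WT female and with no filter on low values. Lrat stood at 16.04% of the WT mean (−1.66 ± 0.67 SE, limma adjusted p = 0.126). That SE comes from all 8 libraries, among them the LKO-labelled females at 0.276 and 5.04 FPKM. Vim, Tagln and Pdgfrb had log2 differences of 1.15, 0.45 and 0.30, and Thy1, Pdgfra, Des and Rgs5 had values between −0.49 and −0.07, all short of the threshold. The spread in every male test takes in the females as well, so a missed call does not rest on the males alone.

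**Figure D2:**
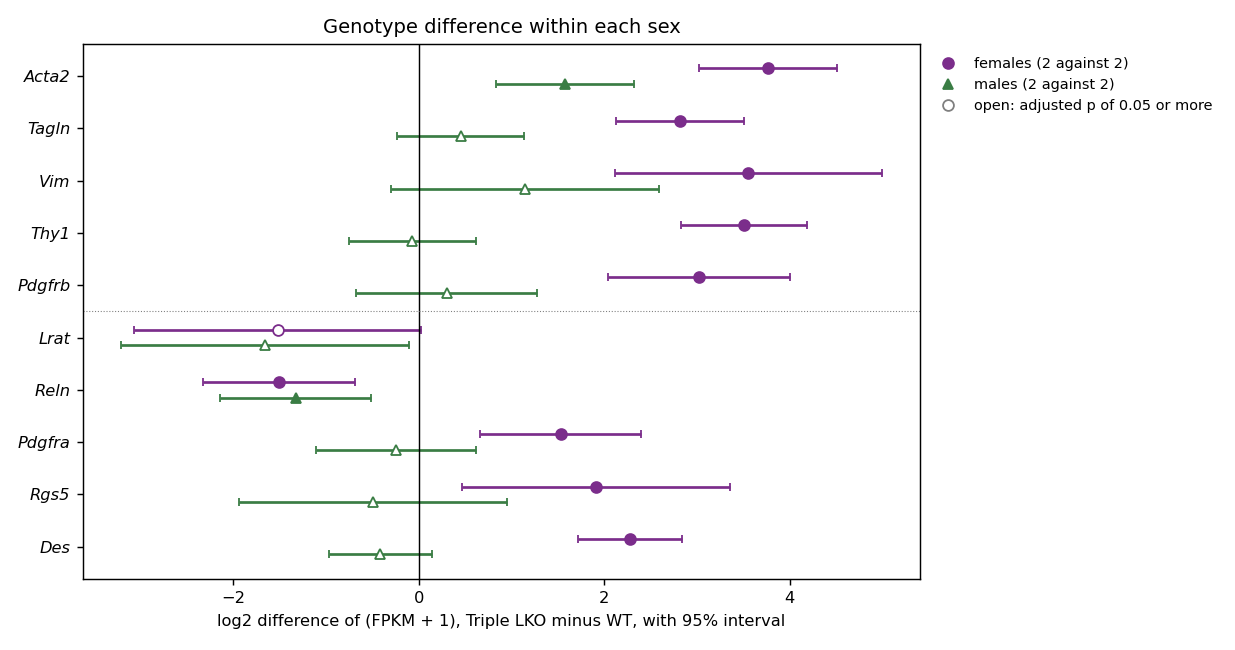
Log2 difference of (FPKM + 1), LKO-labelled minus WT, for each gene within females (circles) and males (triangles), with 95% intervals from limma; filled symbols passed the threshold, and the dotted line parts the activated side (above) from the quiescent side (below). Female intervals lie above those of the males for Acta2, Tagln, Thy1, Pdgfrb, Des and Pdgfra. The intervals of both sexes nearly coincide for Lrat, where the female one just reaches above 0, and for Reln, where both lie below 0.

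The difference between the sexes was tested itself, as the female minus the male genotype effect. It passed for 5 of the 10 genes, all with a positive sign, where 7.21% of all genes passed in either direction. These were Thy1 (3.58 ± 0.41 SE, limma adjusted p = 0.00956), Pdgfrb (2.72 ± 0.59, 0.0395), Des (2.69 ± 0.34, 0.0121), Tagln (2.37 ± 0.42, 0.0236) and Acta2 (2.19 ± 0.45, 0.0346). Vim, Rgs5 and Pdgfra had values of 2.41, 2.40 and 1.77 that did not pass. These values were 3.44, 3.32 and 2.36 without LKO-labelled female 1, and 1.38, 1.49 and 1.18 without LKO-labelled female 2. For Lrat the difference was 0.14, with a 95% interval of −2.06 to 2.33, and for Reln −0.18, with −1.34 to 0.98, so the intervals also allow sizeable differences. All 5 calls ended without any 1 of the 4 WT livers, without LKO-labelled male 3, and by voom on fragments recovered from the FPKM values. The targeted genes differed between the sexes as well, with a difference of 2.19 for Zfp36, 2.53 for Zfp36l1 and 2.56 for Zfp36l2 (limma adjusted p = 0.0267, 0.033 and 0.0212), and their part in these results was not tested.

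Ratios within a library do not depend on its scaling. Acta2 exceeded Lrat 93.7- and 9.03-fold in LKO-labelled females and 29.2- and 4.97-fold in LKO-labelled males, whereas the ratio was 0.227 and 0.223 in WT females and 0.309 and 0.366 in WT males. Every LKO-labelled liver had more Acta2 than Lrat per kilobase, and every WT liver had less. On the log2 scale of (FPKM + 1) the difference between Acta2 and Lrat was 2.91 ± 1.15 in LKO-labelled and −1.36 ± 0.33 in WT livers (SD, n = 4 each). Since the genes were chosen with results known, no p is given for these ratios. The ratio of Acta2 to Reln ran from 10.7 to 48.6 in LKO-labelled and from 0.229 to 0.597 in WT livers.

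Pdgfrb, which quiescent and activated stellate cells both make, served as a common denominator. It was not a steady one, since its LKO-labelled mean was 14.6-fold the WT mean in females and 1.49-fold in males. The ratios therefore mix changes of both genes and do not give levels per stellate cell. Against it, Lrat had ratios from 0.0249 to 0.682 in LKO-labelled and from 4.35 to 5.37 in WT livers, and Reln from 0.0479 to 0.318 in LKO-labelled and from 2.25 to 4.56 in WT livers. The WT ratios of Lrat lay within a narrow range although the level of Lrat itself ran from 3.96 to 9.49 FPKM. Pdgfra relative to Pdgfrb ran from 0.188 to 0.314 in LKO-labelled and from 0.524 to 1.13 in WT livers. Acta2 relative to Pdgfrb was 2.33 and 1.48 in LKO-labelled females and 5.77 and 3.39 in LKO-labelled males, against 1.05 to 1.6 in WT livers, so LKO-labelled female 2 lay inside the WT range. By this ratio the LKO-labelled males stood above the females, the reverse of the order of their Acta2 levels.

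The ratio of the summed 5 activated genes to the summed 5 quiescent genes stood apart between the genotypes in both sexes. Such a ratio does not tell which of the sums moved. The ratio of the sums was 3.65 and 4.07 in LKO-labelled females and 4.01 and 5.19 in LKO-labelled males, against 0.687 and 0.870 in WT females and 1.05 and 0.914 in WT males. The activated sum is carried largely by Vim and the quiescent sum by Rgs5, the most abundant gene of each side. Acta2 relative to Tagln ran from 0.751 to 1.03 in LKO-labelled and from 0.234 to 0.523 in WT livers. Thy1 relative to Pdgfrb overlapped between the genotypes, with 0.354 to 1.51 in LKO-labelled and 0.571 to 1.01 in WT livers.

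**Figure D3:**
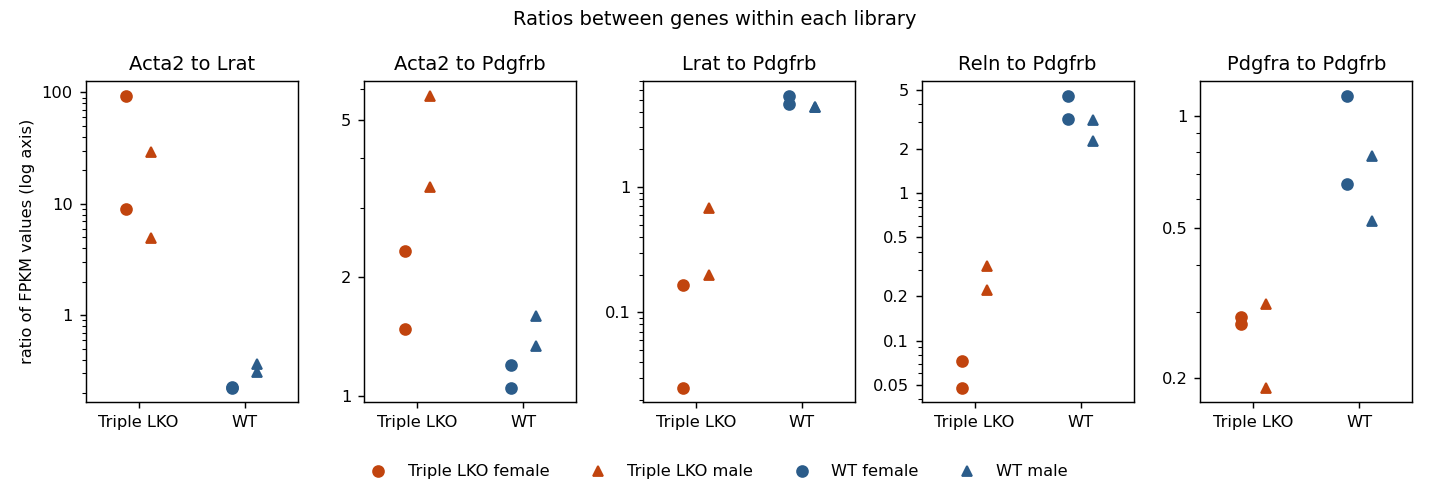
Ratios of FPKM values within each library for 5 pairs of genes, on a logarithmic axis that differs between panels (LKO-labelled livers on the left of each panel, WT livers on the right; circles, females; triangles, males). The genotypes are apart in 4 panels, and in the panel of Acta2 to Pdgfrb the lowest LKO-labelled value, 1.48, lies below the highest WT value, 1.6.

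The order of the mean levels, per kilobase, differed between the groups. In LKO-labelled females it ran from Vim (221.5 FPKM), Rgs5 (64.0), Tagln (37.0) and Acta2 (35.7) down to Lrat (2.66) and Reln (1.38). In LKO-labelled males Vim (18.4 FPKM) was again first, followed by Tagln (6.87), Acta2 (6.11) and Rgs5 (5.73), whose values overlapped. In WT females Vim (14.2 FPKM) and Rgs5 (13.4) led, and Lrat (7.28) and Reln (5.33) came next. In WT males Rgs5 (7.47 FPKM), Vim (7.38) and Tagln (4.79) preceded Lrat (4.04) and Reln (2.47), and the ranges of Rgs5 and Vim overlapped. Lrat and Reln thus stood above Acta2 in both WT groups and below it in both LKO-labelled groups.

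Other genes of the same cells were counted from lists of names, each without the 10 genes. Of 18 other markers of activated stellate cells and myofibroblasts, 8 were higher over both sexes and 0 lower, with a median log2 difference of 1.45. Within females 17 were higher and 0 lower (median 2.71), and within males 1 was higher and 0 lower (median 0.37). Under median-of-ratios scaling these counts were 7 and 0 over both sexes, 14 and 0 in females, and 1 and 2 in males. As scaled by the authors, 24.7% of all genes were higher over both sexes, 28.1% within females and 13.4% within males. The median log2 differences of all genes were 0.39, 0.45 and 0.24. Col1a1, a fibrillar collagen gene, had 79.2 and 320.0 FPKM in LKO-labelled females and 2.69 and 2.55 FPKM in LKO-labelled males, against 0.66 and 1.73 FPKM in WT females and 0.28 and 0.134 FPKM in WT males. Col3a1, another, had 141 and 455 FPKM in LKO-labelled females and 5.25 and 4.42 FPKM in LKO-labelled males, against 4.27 and 5.62 FPKM in WT females and 2.61 and 2.18 FPKM in WT males. Neither was called within males (limma adjusted p = 0.0983 and 0.301), and the sex difference passed for both (4.65 each, 0.0234 and 0.0157). Timp1, an inhibitor of matrix proteases, had 62.0 and 56.7 FPKM in LKO-labelled females and 0.422 and 0.699 FPKM in LKO-labelled males, and was listed at 0 in 3 WT livers.

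Markers of the quiescent cell did not move together. Of 17 other quiescent markers 1 was higher and 4 lower over both sexes (median log2 difference −0.36). Within females 4 were higher and 2 lower (median 0.03), and within males 0 were higher and 4 lower (median −0.84). Under median-of-ratios scaling 3 were higher and 4 lower within females, with a median of −0.40. As scaled by the authors, 24.7% of all genes were higher and 5.74% lower over both sexes. Within females these shares were 28.1% and 6.23%, and within males 13.4% and 4.09%. Vipr1, a receptor for vasoactive intestinal peptide, averaged 1.46 FPKM in LKO-labelled and 10.1 FPKM in WT livers (log2 difference −2.30, limma adjusted p = 0.00311), and Angptl6, an angiopoietin-like secreted protein, 1.83 and 7.08 FPKM (−1.48, 0.00394). Colec11, a collectin, and Hgf, hepatocyte growth factor, had log2 differences of −0.69 and −0.25 that did not pass.

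Of 18 contractile genes and known targets of serum response factor, 9 were higher and 0 lower over both sexes, 15 were higher within females and 4 within males, beside 24.7%, 28.1% and 13.4% of all genes. Srf itself, the gene for serum response factor, averaged 7.49 FPKM in LKO-labelled and 3.70 FPKM in WT livers (log2 difference 0.85, limma adjusted p = 0.00941), and tropomyosin 1, Tpm1, 43.6 and 8.74 FPKM (2.10, 0.000995). Over both sexes median-of-ratios scaling called 6 of the 18 higher and 1 lower, and quantile normalization 4 and 1. Under each of these scalings 10 were higher within females and 2 within males. Of 8 other intermediate filament and linker genes, 5 were higher and 0 lower over both sexes. Median-of-ratios scaling called 3 higher and quantile normalization 4. Among the 5 were lamin A/C, Lmna (1.51, limma adjusted p = 0.00291), and the keratin gene Krt18 (1.69, 0.00978), which hepatocytes make.

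Among the ligands that act on stellate cells, Pdgfb had 15.2 and 22.6 FPKM in LKO-labelled females and 2.70 and 1.98 FPKM in LKO-labelled males, against 0.847 to 1.38 FPKM in WT females and 0.455 to 1.04 FPKM in WT males. Its log2 difference over both sexes was 2.08 (limma adjusted p = 0.0121), and it was not called within males (0.0633). It was the 1 called of 5 other genes of platelet-derived growth factor signalling, where 24.7% of all genes were called higher. Within females 4 of the 5 were higher, where 28.1% of all genes were. The count of 4 was 2 under median-of-ratios scaling and 1 under quantile normalization. Transforming growth factor beta signalling is the main inducer of collagen in these cells. Of 14 of its genes, 6 were higher and 0 lower over both sexes, 11 within females and 1 within males. The shares of all genes called higher in these comparisons were 24.7%, 28.1% and 13.4%. Tgfb1 had 29.6 and 39.6 FPKM in LKO-labelled females and 6.93 and 5.31 FPKM in LKO-labelled males, against 5.98 and 6.09 FPKM in WT females and 3.31 and 4.84 FPKM in WT males. It was called over both sexes (1.41, limma adjusted p = 0.023) and not within males (0.50, 0.213), and its sex difference passed (1.83, 0.0299). Its receptor gene Tgfbr1 had 22.5 and 20.3 FPKM in LKO-labelled females and 6.06 and 8.57 FPKM in LKO-labelled males, against 3.64 to 6.61 FPKM in WT livers (1.10 over both sexes, limma adjusted p = 0.0207; not called within males, 0.204). Over both sexes 1 of these 14 was called higher under median-of-ratios scaling and 1 under quantile normalization, and within females 7 under each.

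Of 13 retinoid genes 3 were higher and 3 lower over both sexes, beside 24.7% and 5.74% of all genes. The counts were 2 and 4 under median-of-ratios scaling, and 0 and 4 under quantile normalization. Aldh1a1, a retinaldehyde dehydrogenase that is abundant in hepatocytes, averaged 174 FPKM in LKO-labelled and 684 FPKM in WT livers (log2 difference −1.96, limma adjusted p = 0.007). Cyp26b1, which breaks down retinoic acid, averaged 0.662 and 5.14 FPKM (−1.84, 0.025), and Bco1, which cleaves beta-carotene to retinal, 32.1 and 2.74 FPKM (2.50, 0.023). Rbp4, the retinol carrier that hepatocytes secrete, had 0.50 and did not pass. The median of the list, 0.37, was −0.01 under median-of-ratios scaling. Of the Reelin pathway, Dab2 and Vldlr were tested and had 1.26 and −0.05, neither called over both sexes. Within females 1 of these 2 was called higher, where 28.1% of all genes were. The sex difference also passed for 1 of the 2, where 7.21% of all genes passed.

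Of 9 other regulators of G-protein signalling, 3 were higher and 0 lower, beside 24.7% and 5.74% of all genes. Under median-of-ratios scaling 2 were higher, and under quantile normalization also 2. Rgs2 had 3.21 (limma adjusted p = 9.95e-05) and Rgs19 2.50 (0.000754), both called in each sex, unlike Rgs5. Of 15 transcription factors of stellate cells, 3 were higher and 1 lower, shares near those of all genes (24.7% and 5.74%), and quantile normalization gave 3 and 4. Klf6, an early gene of stellate cell activation, had a log2 difference of 2.56 (limma adjusted p = 0.00128) and Gata6 one of 1.03 (0.00328). Tcf21 and Hand2, factors of the mesenchymal lineage, had log2 differences of −1.21 and −1.19 in males (limma adjusted p = 0.0108 and 0.0356), and of 0.50 and 0.47 in females, not called. The sex difference itself passed for Tcf21 (1.70, limma adjusted p = 0.0232).

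**Figure D4:**
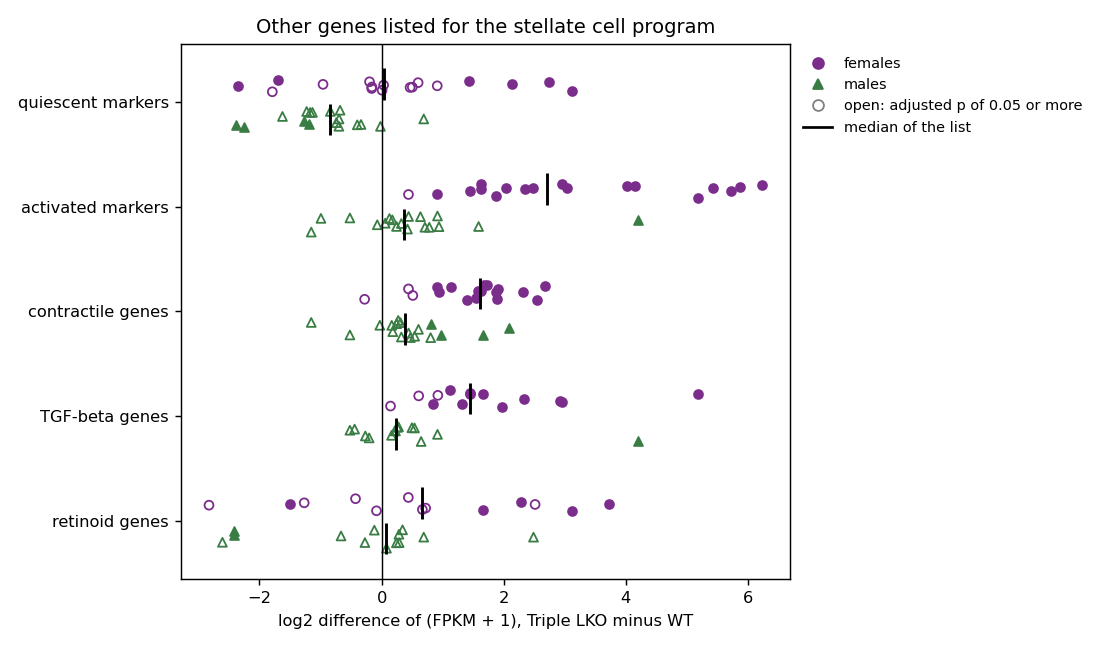
Log2 difference of (FPKM + 1), LKO-labelled minus WT, of every tested gene in 5 of the lists, within females (circles) and males (triangles), without the 10 genes; filled symbols passed the limma threshold, black bars are medians, and vertical scatter within a row carries no value. The medians of activated markers are 2.71 in females and 0.37 in males, and those of quiescent markers 0.03 and −0.84. Those of all genes tested are 0.45 and 0.24.

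Markers of other cells were read beside the group, since several of its genes are shared with them. Within females 28.1% of all genes were called higher and 6.23% lower, and within males 13.4% and 4.09%. Pericyte and vascular smooth muscle markers were higher in 4 of 6 and lower in 0 within females, and none of 6 was called within males. Their summed level ran from 10.4 to 117 FPKM in LKO-labelled and from 6.51 to 11.8 FPKM in WT livers. Of 8 portal fibroblast and mesothelial markers, 7 were higher and 0 lower within females, and 1 was higher and 1 lower within males, with a summed level of 13.5 to 129 FPKM in LKO-labelled and 20.7 to 42.3 FPKM in WT livers. Of this list Clec3b was listed at 0 in 7 libraries.

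T and NK cell markers, which bear on Thy1, were higher in 8 of 10 and lower in 0 within females, and none of 10 was called within males. Their sum was 26.7 and 67.7 FPKM in LKO-labelled females and 3.56 and 3.43 FPKM in LKO-labelled males, against 3.09 to 8.34 FPKM in WT livers. Macrophage markers, which bear on Vim, were higher in 8 of 10 and lower in 2 within females and higher in 1 within males, with sums from 54.0 to 984 FPKM in LKO-labelled and 87.2 to 215 FPKM in WT livers. Endothelial markers were higher in 4 of 12 and lower in 1 within females and higher in 1 within males, with sums from 83.3 to 288 FPKM in LKO-labelled and 87.8 to 142 FPKM in WT livers. Hepatocyte markers, with sums from 21800 to 32400 FPKM in LKO-labelled and 49500 to 56900 FPKM in WT livers, were higher in 1 of 10 and lower in 5 within females, and lower in 5 within males. Bile duct markers were higher in 3 of 6 within females, with sums from 13.8 to 3180 FPKM in LKO-labelled and 24.7 to 27.5 FPKM in WT livers, most of it Spp1, which macrophages and activated stellate cells also make. The counts within females changed under quantile normalization, with 2 of 6 pericyte, 4 of 8 portal fibroblast, 5 of 10 T and NK cell, 5 of 10 macrophage and 1 of 6 bile duct markers higher, and 1 of 12 endothelial markers higher and 3 lower. Under median-of-ratios scaling the numbers higher in the same order were 2, 6, 6, 5 and 2, and 2 endothelial markers were higher and 2 lower. The part of any of these cells in the levels of the 10 genes was not tested.

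Genes of skeletal muscle, which also makes desmin, and of smooth muscle were read as well, and their part in Des and Acta2 was not tested. Myh4 and Pvalb were listed at 0 in all 8 libraries, Ckm and Tnnt3 were listed at 0 in the library with the highest Des, LKO-labelled female 1, and at 0.211 and 0.387 FPKM in LKO-labelled female 2. The skeletal actin gene Acta1, a near copy of Acta2 in its coding sequence, had 1.75 FPKM in LKO-labelled female 1 and was listed at 0 in all 4 WT livers. Among smooth muscle genes, Myh11 ranged from 0.329 to 1.57 FPKM in LKO-labelled and from 0.23 to 0.594 FPKM in WT livers, and Cnn1 was at or below 0.201 FPKM in every library. Actg2 ranged from 0.547 to 7.11 FPKM in LKO-labelled and from 0.132 to 0.271 FPKM in WT livers. Smtn ranged from 2.1 to 10.5 FPKM in LKO-labelled and from 1.13 to 1.69 FPKM in WT livers, and Myl9 from 1.64 to 9.94 FPKM in LKO-labelled and from 0.469 to 2.75 FPKM in WT livers. The highest value of Myh11, Actg2, Smtn and Myl9 was that of LKO-labelled female 2, as for Acta2.

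**Figure D5:**
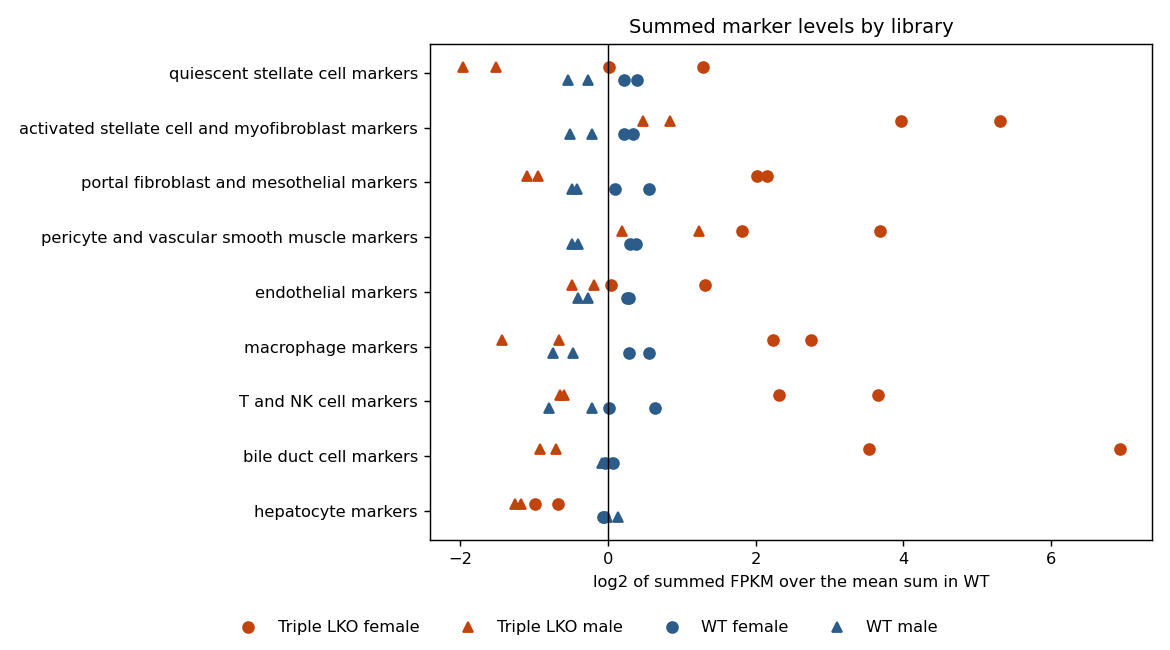
Summed FPKM of 9 lists of cell type markers in each library, as log2 of the sum over the mean sum of the 4 WT livers (upper points of each row, LKO-labelled; lower points, WT; circles, females; triangles, males; the sums leave out the 10 genes). The LKO-labelled females lie above all WT livers for activated stellate cell, portal fibroblast, pericyte, macrophage, T and NK cell and bile duct markers, and both LKO-labelled males lie above all WT livers only for activated stellate cell markers.

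The genes whose pattern was most like those of Acta2, Lrat and Reln were taken by the mean absolute difference between centred log2(FPKM + 1) profiles over the 8 libraries, among 12348 other protein-coding genes. Nearest to Acta2 were Ppic, a cyclophilin (0.21), Tes, a protein of cell adhesions (0.22), and Serpinb6a, an intracellular protease inhibitor (0.22). Nearest to Lrat were Colec10 (0.18), itself used as a stellate cell marker, Folr2 (0.25) and Slc16a11 (0.31). Nearest to Reln were Enpp1, an ectonucleotidase (0.14), and the bone morphogenetic protein genes Gdf2 (0.17) and Bmp2 (0.19). Colec10 had 0.951 and 10.2 FPKM in LKO-labelled females and 1.2 and 2.43 FPKM in LKO-labelled males, against 15.6 and 14.7 FPKM in WT females and 8.22 and 6.75 FPKM in WT males, with LKO-labelled female 2 the highest of its genotype as for Lrat. Within the group, Pdgfrb and Thy1 had the most similar pair of profiles (0.28), followed by Tagln with Pdgfrb (0.33) and Lrat with Reln (0.34).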

How the data were processed

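Liver RNA from 4 samples labelled Triple LKO and 4 labelled WT, 2 females and 2 males each, was compared. The authors deposited 1 table of FPKM values, that is fragments per kilobase of a gene and per M fragments in its library. The submitters' processing notes name STAR 2.6.1, fastp, HTSeq, DESeq2 and the mm10 build. The role of each, the strand setting and the annotation release are not stated there. Symbols were found for 34490 of 35275 identifiers, and coordinates are 1-based on GRCm38. The depth of each library was taken from genes whose annotated transcripts all had the same length. A length per gene was then chosen, from annotated transcripts where possible, so that its values became whole fragments to within 0.001 of a fragment. This could be done for 100.0% of positive values. Since the length was chosen to that end, the share is no check on the fragments.

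The 13573 genes averaging 0.5 FPKM or more were tested with limma-trend (limma 3.58.1, R 4.3.3) on log2(FPKM + 1), a scale that understates changes of low genes. Genotype and sex were terms, and a model with 1 mean per genotype and sex gave the within-sex contrasts and their difference. Benjamini-Hochberg adjusted p under 0.05 was the threshold, over all genes tested. Since the values are not counts, a count test was no main test. The code was tested on simulated data. Replicate numbers follow sample order and pair nothing. No label says that each sample is its own animal, so the p-values rest on the spread between samples, which may be technical. Fragments come from amplified libraries, so intervals on them cover counting error only.

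The 10 genes, their division into sides and all lists were chosen with earlier results of these data known. Named from each list were the first 3 tested genes and up to 3 more called over both sexes with the smallest p, and for Acta2, Lrat and Reln the 3 most similar protein-coding genes. Some genes that this rule names are not reported here. Skeletal muscle genes, Myh11, Cnn1, Actg2, Smtn, Myl9 and Clec3b were named after their values were seen. Tests and sequence searches used Python 3.11.15.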

Additional observations from a re-analysis of the deposited data

Results flagged for a closer look

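The genotype effect differed between the sexes, by a test of the difference itself, for 5 of the 10 genes. On the log2 scale the female minus the male effect was 2.19 for Acta2, 2.37 for Tagln, 2.69 for Des, 2.72 for Pdgfrb and 3.58 for Thy1. For Acta2 both effects were positive, 3.77 in females and 1.58 in males. For Des they had opposite signs, 2.28 in females and −0.41 in males, the second not called. For Thy1 the effect was 3.51 in females and −0.07 in males.

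In the LKO-labelled group, 1 library lay far from the other 3 for Lrat and for Reln, in both genes female 2. For Lrat its 5.04 FPKM was separated from the next value, 1.06 FPKM, by a gap of 0.82911 of the range, and for Reln its 2.23 FPKM from 0.532 FPKM by 0.863 of the range. The gap of Lrat was barely above Dixon's 95% critical value for 4 samples. The gap was tested in 20 groups, 10 genes by 2 genotypes, and chance flags about 1 in 20 groups. The same library had the highest level of its genotype for 9 of the 10 genes, all but Des. The share of all genes for which it did so was not counted. Summed markers of stellate cells, portal fibroblasts, pericytes, endothelium, macrophages, T and NK cells and bile ducts were also highest there. Those of hepatocytes were not.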

How the results depend on the processing

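All 10 genotype differences kept their sign in all 19 alternatives, and the calls of Acta2 and Reln were kept in each. The count of the 10 genes called over both sexes was 5, and it was 3 with no filter on low values, 3 under quantile normalization, 2 with no sex term, 2 without the samples low in Gm42418, 8 by voom on recovered fragments and 2 to 5 without 1 library at a time. The count over all genes was 4132, against 2421 under quantile normalization, 1970 without the samples low in Gm42418, 2505 with title-number pairs as a block and 1957 (without WT female 2) to 4054 without 1 library at a time. Within females 6 to 9 of the 10 genes were called in 16 alternatives. Within males the count of 2 was 1 with no filter, 1 under quantile normalization and 0 to 4 without 1 library at a time, 0 without any 1 male library, where 2 genes had an unadjusted p under 0.05. The sex difference, called for 5 genes, was called for 3 with no filter, 3 under median-of-ratios scaling, 3 under quantile normalization, 0 by voom and 0 to 8 without 1 library at a time. It was 0 without any 1 WT library or LKO-labelled male 3. Of the 10 genes, 8 had an unadjusted p under 0.05 as reported, 8 by voom, and 6 to 8 where those libraries were left out. It changed sign, never called, for Lrat under quantile normalization (−0.17) and without 1 library at a time (range −0.98 to 1.26), and for Reln at a pseudocount of 0.1 (0.29), by voom (0.50) and without 1 library at a time (−0.72 to 0.36). The difference between genotypes in log2 Acta2 minus Lrat, 4.27, was 5.76 at a pseudocount of 0.1 and 3.77 to 4.70 without 1 library at a time. The cause of these shifts was not tested. No paired analysis was possible because no label pairs samples across genotypes. Deviations of samples neighbouring by title number had r = 0.131 in females and 0.15 in males. With 2 libraries per genotype and sex, both pairs of a sex must give the same r, and the other pairing gives its negative. This r therefore cannot tell whether neighbours vary together. A block on these neighbours, a hint from the titles and not the design, kept the calls of Acta2, Vim, Lrat and Reln and lost that of Tagln. Planned tests with edgeR and DESeq2 were not run, since the files hold FPKM, and voom, chosen after seeing the data, took their place. Where 1 library was left out, the lone one of its genotype and sex was assumed to vary like the others. Depth limits the lowest levels, with as few as 17 fragments for Thy1, 23 for Des and Lrat and 28 for Pdgfra.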

Other observations

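A pair of listed genes not described so far, chosen here after their values were seen, stood higher in both LKO-labelled females than in the other 6 libraries. Aldh1a2, a retinaldehyde dehydrogenase that makes retinoic acid, had 16.8 and 10.8 FPKM in LKO-labelled females and 0.423 and 0.149 FPKM in LKO-labelled males, against 0.16 and 0.052 FPKM in WT females and 0.0978 and 0 FPKM in WT males. Its sex difference was 3.43 on the log2 scale (limma adjusted p = 0.00876). Cygb, cytoglobin, a globin of stellate cells that is often used as a marker of the quiescent state, had 20.7 and 51.0 FPKM in LKO-labelled females and 2.17 and 1.25 FPKM in LKO-labelled males, against 3.31 and 4.90 FPKM in WT females and 1.92 and 3.24 FPKM in WT males. It was called higher within females (2.74, limma adjusted p = 0.00337) and not within males (−0.40, 0.576), and its sex difference passed (3.13, 0.0299).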
